A study of Rattus norvegicus with 6 samples.

Results

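The genes described here encode complement components and the receptors for the complement anaphylatoxins. They are C1qa, C1qb, C1qc and C1s of the classical pathway, the central component C3, the alternative pathway protease gene Cfb, the membrane regulator Cd55, and the receptor genes C3ar1 and C5ar1. Members were chosen by gene name, 9 genes of the 32623 rows in the expression table. RNA sequencing had been performed on myocardial tissue of male rats of WT genotype, 3 sham samples and 3 ischemia samples, both labelled 30 min. The protocol attached to every sample describes anesthesia, ventilation and a left thoracotomy, without separating sham rats. In the ischemia group the left anterior descending coronary artery was tied around a PE-10 tube, and ST elevation on the electrocardiogram marked the occlusion. No ligation is described for the sham group. The strain, the age and the part of the heart that was taken are not given in the sources used here. The comparison asks which transcripts differ between ischemic and sham myocardium. The labels number the replicates but do not say that they came from separate rats, so p-values measure only the spread between these samples, of which a technical part cannot be separated.

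Complement is a cascade of plasma and membrane proteins that tags cells and debris and recruits leukocytes. In the classical pathway the C1q recognition molecule, built from A, B and C chains, carries the proteases C1r and C1s, which cleave C4 and C2. The alternative pathway uses factor B, encoded by Cfb, to amplify the cleavage of C3. Cleavage of C3 and C5 releases the anaphylatoxins, small peptides that act on the receptors encoded by C3ar1 and C5ar1, mainly on myeloid cells. Decay-accelerating factor, encoded by Cd55, dissociates the convertases on the host cell surface. Liver supplies most circulating complement, while C1q is made largely by tissue macrophages.

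Total counts ranged from 68529126 to 79591989 per sample, and 3 counts corresponded to 0.0377 to 0.0438 CPM, the count after scaling to library size, a limit that covers counting error only. The tissue label was checked against 9 cardiomyocyte marker genes, whose summed FPKM (fragments scaled to library size and transcript length) was 25547 to 42716 in sham and 11990 to 23339 in ischemia, with 0 genes passing the edgeR test and 4 at an unadjusted p under 0.05. The libraries differed in other ways. The summed FPKM of 6 atrial genes reached 48457 and 39432 in sham replicates 1 and 3 but 252.3 in sham replicate 2, and was 9643, 2084 and 1288 in the ischemia samples. The labels describe male rats, yet sham replicate 1 held 26 counts over the Y-linked genes Ddx3y, Eif2s3y and Kdm5d, where each other library held 1772 to 4318. Results are therefore also given without this library.

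Of the 9 members, 1 rose in ischemia at an adjusted p under 0.05 by the edgeR quasi-likelihood test, where 5.18% of the 13964 tested genes rose. That gene was C5ar1. By edgeR 0 members fell, where 1.53% of tested genes fell, and 3 members had a negative log2 fold change at an unadjusted p under 0.05 (C1qa, C1qc and Cfb), as 14.2% of tested genes had. DESeq2 called these 3 as lower, beside 12.5% of tested genes, and limma on log2(FPKM + 0.1) called 0, beside 1.88%. DESeq2 called C5ar1, C3ar1 and C3 as higher, beside 14.8% of tested genes. Only C5ar1 passed a second rule, modelled on a cutoff in the study, of a log2 fold change above 2 with a p under 0.01, taken here as unadjusted, which 3.31% of tested genes passed. The 3 ischemia FPKM values lay above the 3 sham values for 2 members, C3ar1 and C5ar1, beside 23.6% of tested genes. They lay below the sham values for 2 members, C1qa and C1qc, beside 15.0% of tested genes, and overlapped for 5 members. The median log2 fold change over the members was -0.033, against -0.0015 over all tested genes. C5ar1, C3, C3ar1 and Cd55 had positive values, and C1qb, C1qc, C1qa, C1s and Cfb negative ones, of which Cfb was the lowest and C1qb the closest to 0.

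**Figure D1:**
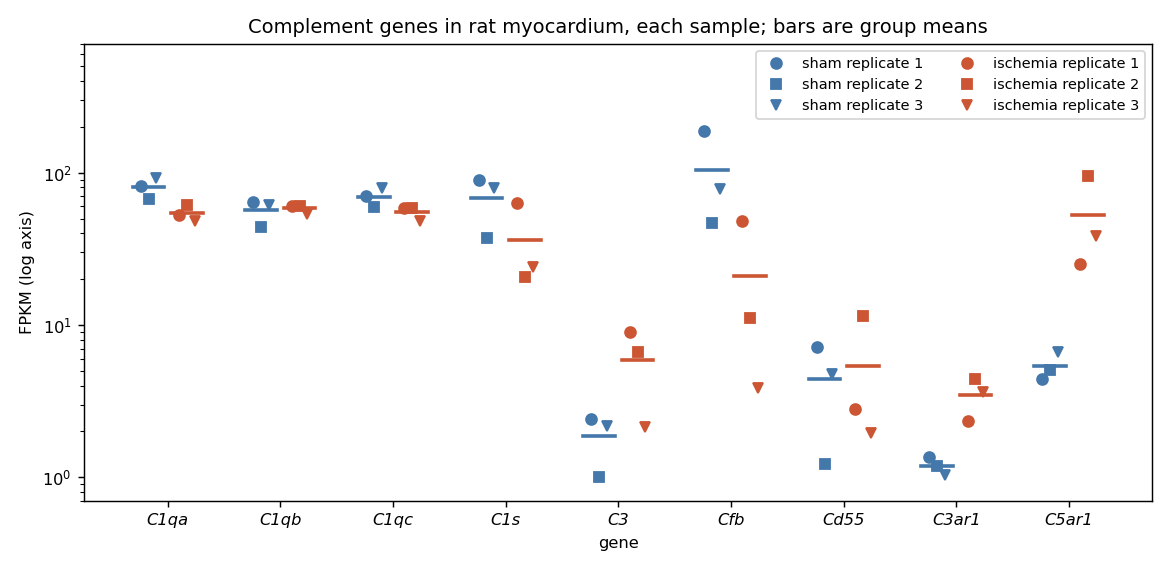
FPKM of the 9 genes in each sample on a log scale, with a point for each of the 3 sham and 3 ischemia replicates and a line at each group mean. The ischemia points of C5ar1 and C3ar1 lie above the sham points, those of C1qa and C1qc lie below them, and the remaining genes overlap.

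C5ar1 encodes the receptor for C5a, a chemoattractant of neutrophils and monocytes. Its FPKM was 4.41, 5.04 and 6.60 in sham replicates 1, 2 and 3 and 25.1, 95.2 and 38.2 in ischemia replicates 1, 2 and 3. Every ischemia value was above every sham value, with replicate 2 the highest. The rise was 9.05-fold, a log2 fold change of 3.18 ± 0.50 (SE, n = 3 per group) with an adjusted p of 0.0316 by edgeR. On FPKM alone the exact permutation test gave a two-sided p of 0.1, the smallest that 3 samples against 3 can give. The deposited table places the gene at 78186776 to 78195328 of chromosome 1, minus strand. The call did not hold without sham replicate 1 (log2 fold change 3.02, adjusted p = 0.159), sham replicate 2 (3.23, 0.0833), sham replicate 3 (3.28, 0.131) or ischemia replicate 3 (3.32, 0.110), fits in which edgeR called 0 of the 13964 genes. Over 19 alternatives the adjusted p ran from 1.87e-08 to 0.225, and the log2 fold change from 2.53 to 3.49.

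C3ar1 encodes the receptor for C3a. Its FPKM was 1.35, 1.19 and 1.04 in sham and 2.36, 4.4 and 3.62 in ischemia, from 153 to 208 counts in sham and 393 to 669 in ischemia. Ischemia and sham did not overlap, and ischemia replicate 1 was the lowest of its group. The log2 fold change was 1.43 ± 0.33 (SE, n = 3 per group, 95% interval 0.64 to 2.22), with an adjusted p of 0.0515 by edgeR, which missed the threshold. It passed without ischemia replicate 1 (log2 fold change 1.63, adjusted p = 0.0276), a fit in which 10.7% of all tested genes rose. That was 1 of the 5 among 18 alternatives in which C3ar1 passed, and its adjusted p over the 18 ran from 0.000711 to 0.288. The table places C3ar1 at 155684029 to 155690869 of chromosome 4, minus strand.

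The receptors were next set against each other within each sample, since both values come from 1 library. C5ar1 exceeded C3ar1 in FPKM by 3.27, 4.24 and 6.36 times in sham and by 10.7, 21.6 and 10.5 times in ischemia. It was higher in each ischemia sample than in any sham sample. On log2 CPM it differed by 1.6 between the groups (exact permutation test, two-sided p = 0.1, adjusted over the 4 planned ratios 0.2). Sham samples had a log2 ratio of 2.09 ± 0.48 (SD, n = 3) and ischemia samples one of 3.69 ± 0.59 (SD, n = 3), so C5ar1 differed more than C3ar1, at the smallest p the design allows before adjustment.

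Markers of neutrophils and monocytes moved with both receptors. Of 14 tested marker genes 11 rose, where 5.18% of all tested genes rose, and the median log2 fold change of the markers was 6.52. Their summed FPKM was 38.0 to 52.1 in sham and 910.7 to 4478 in ischemia, and Cxcr1 was at 0 counts in every sample. The alarmin gene S100a9, among the most abundant neutrophil transcripts, had FPKM values of 5.98, 11 and 4.98 in sham and 242.3, 2224 and 241.1 in ischemia. Ischemia replicate 2 was the highest for S100a9 and for C5ar1. The part of these cells in the receptor values was not tested, and in bulk tissue a different number of cells of a type and a different amount of RNA per cell cannot be told apart.

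The 250 bases before the start of C3ar1 are shown because this receptor gene separated the groups and its start lies close to motifs of inflammatory factors. The sequence comes from RefSeq on GRCr8, at chr4:157756531-157756780 on the minus strand, and capitals mark the motif matches. These positions belong to GRCr8 and are separate from the table's coordinates.
C3ar1: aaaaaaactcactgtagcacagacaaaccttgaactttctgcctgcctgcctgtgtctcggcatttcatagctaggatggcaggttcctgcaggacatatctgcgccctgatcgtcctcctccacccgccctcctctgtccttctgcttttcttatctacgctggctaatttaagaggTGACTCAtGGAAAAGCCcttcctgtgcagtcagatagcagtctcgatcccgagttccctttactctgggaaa
Positions are counted backwards from the start of the gene, and both strands were searched. An AP-1 motif (TGANTCA) lies at -72 to -66 and an NF-kB motif (GGNNTTTCC) at -64 to -56, read there on the opposite strand. The AP-1 letters occur in 6.36% and the NF-kB letters in 5.18% of 27457 rat gene windows of this length.

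C1qa, C1qb and C1qc encode the A, B and C chains of C1q and lie next to each other on the minus strand of chromosome 5. In the table C1qb runs from 155246447 to 155252003, C1qc from 155255005 to 155258392 and C1qa from 155261250 to 155264143. None of the 3 genes passed the adjusted threshold. C1qa had FPKM values of 81.4, 67.3 and 92.2 in sham and 52.4, 61.2 and 48.2 in ischemia. Every ischemia value was below every sham value. The log2 fold change was -0.66 ± 0.15 (SE, n = 3 per group, 95% interval -1.01 to -0.31), and the adjusted p of 0.0504 by edgeR narrowly missed the threshold. It passed in 4 of 19 alternatives, and the adjusted p ran from 1.10e-05 to 0.257.

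C1qc had FPKM values of 70.7, 59.2 and 78.9 in sham and 58.2, 58.9 and 48.0 in ischemia. A small gap separated the groups, that between sham replicate 2 and ischemia replicate 2. Its log2 fold change was -0.42 ± 0.15 (SE, n = 3 per group), with an adjusted p of 0.115 by edgeR. C1qb had FPKM values of 64.0, 44.2 and 61.4 in sham and 60.4, 60.3 and 53.8 in ischemia. These groups overlapped, and sham replicate 2 was the lowest of the 6 samples. The log2 fold change of C1qb was -0.033 ± 0.15 (SE, n = 3 per group), with a 95% interval from -0.39 to 0.32 and an adjusted p of 0.893 by edgeR. Its sign turned in 6 alternatives.

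The chains were then compared with each other within each sample. The FPKM ratio of C1qa to C1qb was 1.27, 1.52 and 1.5 in sham and 0.867, 1.02 and 0.896 in ischemia. It was lower in each ischemia sample than in any sham sample. This ratio was chosen after the values were seen. On log2 CPM sham samples had 0.47 ± 0.14 (SD, n = 3) and ischemia samples -0.16 ± 0.12 (SD, n = 3), a difference of -0.63 (exact permutation test, two-sided p = 0.1, adjusted over 5 ratios 0.167). C1qc to C1qb was 1.11, 1.34 and 1.28 in sham and 0.964, 0.978 and 0.893 in ischemia, also without overlap. The ratio of C1qa to C1qc was 1.15, 1.14 and 1.17 in sham and 0.899, 1.04 and 1.0 in ischemia.

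Resident macrophage markers were set beside the C1q chains, as genes of the cells that make most C1q. Of 13 marker genes, 2 rose (Cd163, a scavenger receptor for haemoglobin, and Cd68, a lysosomal protein of phagocytes) and 0 fell by edgeR. Over all tested genes 5.18% rose and 1.53% fell. Of the 13 markers, 1 had a negative value at an unadjusted p under 0.05. That gene was Adgre1 (log2 fold change -1.13), and Lyve1 (0.072), Folr2 (0.013) and Ms4a7 (-0.16) lay near 0. The neutrophil and monocyte markers were also higher in ischemia, and their part in these values was not tested. The median log2 fold change of the markers was 1.25, and no marker was at 0 in every sample. Their summed FPKM was 78.5 to 145.1 in sham and 175.4 to 474.4 in ischemia. Mean log2 CPM of the C1q chains exceeded that of the markers by 2.81 ± 0.25 (SD, n = 3) in the sham group, while in the ischemia group the excess was 1.55 ± 0.62 (SD, n = 3). The difference was -1.27 (exact permutation test, two-sided p = 0.1, adjusted over the 4 planned ratios 0.2), and each ischemia sample was below each sham sample. Relative to these markers the C1q transcripts were thus less abundant in the ischemia samples, at the smallest p the design allows before adjustment.

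**Figure D2:**
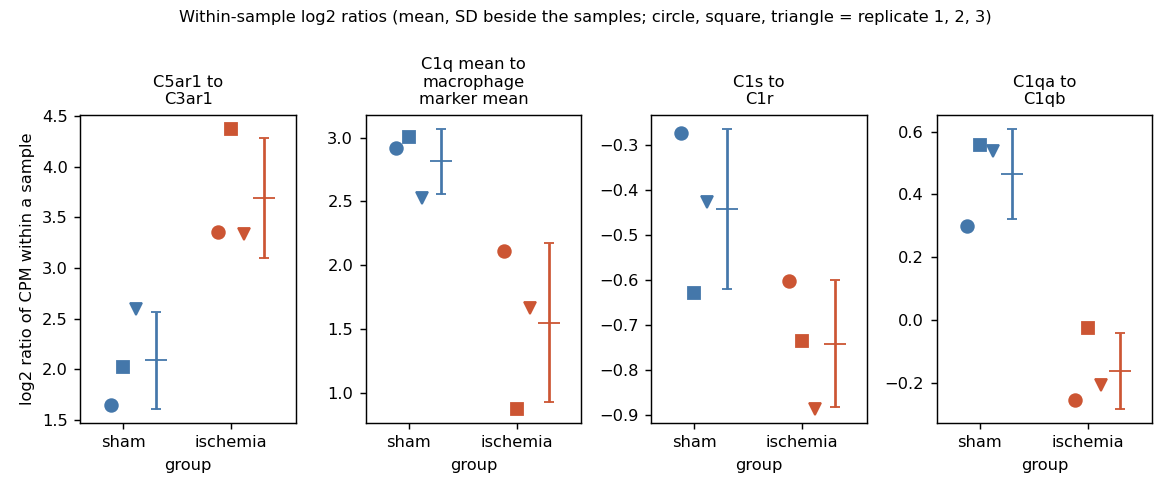
Ratios between complement genes within each sample, as log2 CPM differences, with a point per sample and the group mean and SD (n = 3) beside the points. Each panel has its own vertical range. The C5ar1 to C3ar1 ratio is higher in the 3 ischemia samples than in the 3 sham samples, the C1q to macrophage marker and C1qa to C1qb ratios are lower, and the C1s to C1r ratios overlap.

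The upstream sequences of C1qa and C1qb are shown because these neighbouring genes, whose products join in 1 molecule, had different values. Both come from RefSeq on GRCr8, C1qa at chr5:154419934-154420183 and C1qb at chr5:154407828-154408077, on the minus strand. Capitals mark matches to a PU.1/Ets core (GNGGAA) and, in C1qa, to a STAT motif (TTCNNNGAA).
C1qa: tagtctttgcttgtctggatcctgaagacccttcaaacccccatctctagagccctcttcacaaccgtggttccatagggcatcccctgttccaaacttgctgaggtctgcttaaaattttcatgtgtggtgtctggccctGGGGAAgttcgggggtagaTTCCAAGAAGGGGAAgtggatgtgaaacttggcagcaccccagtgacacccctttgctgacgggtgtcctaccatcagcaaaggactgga
C1qb: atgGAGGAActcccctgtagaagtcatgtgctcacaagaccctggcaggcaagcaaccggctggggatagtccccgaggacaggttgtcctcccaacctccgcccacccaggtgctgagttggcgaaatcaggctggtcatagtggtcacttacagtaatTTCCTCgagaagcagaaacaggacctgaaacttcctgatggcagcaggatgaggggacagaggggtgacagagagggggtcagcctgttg
PU.1 is a transcription factor of myeloid cells. C1qa holds its core at -109 to -104 and at -81 to -76, and C1qb at -247 to -242 and at -90 to -85. These letters are common and occur in 51.6% of the windows. The STAT letters lie in C1qa at -90 to -82 and occur in 7.52% of the windows.

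C1s encodes the protease that C1r activates and that cleaves C4 and C2. Its FPKM was 89.0, 37.2 and 78.9 in sham and 62.8, 20.7 and 24.2 in ischemia. Ischemia replicate 1 lay between the sham values, and the groups overlapped. Its log2 fold change was -0.96 ± 0.50 (SE, n = 3 per group, 95% interval -2.18 to 0.25), with an adjusted p of 0.228 by edgeR. Without ischemia replicate 1, where 7.98% of tested genes fell against 1.53% with all samples, it was -1.66 with an adjusted p of 0.0363. That was the lowest adjusted p over the 19 alternatives, in which it ran to 0.672. C1r, the partner protease, had FPKM values of 117.2, 62.7 and 115.6 in sham and 103.9, 37.7 and 48.8 in ischemia. Sample order was thus alike for the 2 proteases, with sham replicate 2 low and ischemia replicate 1 high in its group. The FPKM ratio of C1s to C1r was 0.760, 0.593 and 0.683 in sham and 0.604, 0.551 and 0.496 in ischemia, which overlapped (log2 CPM difference -0.30, exact permutation test, two-sided p = 0.2, adjusted 0.2). The table places C1s at 157143592 to 157155609 of chromosome 4, minus strand.

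C3 encodes the component on which the pathways converge. Its FPKM was 2.40, 1.01 and 2.17 in sham and 8.93, 6.69 and 2.15 in ischemia, from 424 to 952 counts in sham and 793 to 3819 in ischemia. Ischemia replicates 1 and 2 lay above the sham values, and ischemia replicate 3 lay among them. The fitted log2 fold change was 1.61 ± 0.53 (SE, n = 3 per group, 95% interval 0.33 to 2.88), with an adjusted p of 0.103 by edgeR. Of 18 alternatives it passed with DESeq2 (adjusted p = 0.0197), and the others reached 0.213. The table places C3 at 9721105 to 9747167 of chromosome 9, plus strand. Its upstream sequence is shown for the C/EBP motif of acute-phase genes (TTGCNNAA), and comes from RefSeq on GRCr8 at chr9:2201340-2201589 on the minus strand.
C3: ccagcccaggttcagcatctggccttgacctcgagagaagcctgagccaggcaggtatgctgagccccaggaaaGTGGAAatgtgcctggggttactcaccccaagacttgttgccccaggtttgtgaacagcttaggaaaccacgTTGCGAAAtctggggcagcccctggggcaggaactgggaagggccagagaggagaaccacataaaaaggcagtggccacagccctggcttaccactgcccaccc
Capitals mark the C/EBP letters at -104 to -97, which 9.20% of the windows hold, and a PU.1/Ets core at -176 to -171.

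Cfb encodes factor B, the protease of the alternative pathway convertase. Its FPKM was 186.4, 46.5 and 78.5 in sham and 48.2, 11.1 and 3.83 in ischemia. Sham replicate 2 lay just below ischemia replicate 1, so the groups overlapped in FPKM. In CPM after TMM scaling, the scale nearer to the edgeR test, every ischemia value of Cfb lay below every sham value. The log2 fold change was -2.33 ± 0.97 (SE, n = 3 per group, 95% interval -4.67 to -0.0037), with an adjusted p of 0.154 by edgeR. Without ischemia replicate 1, where 7.98% of tested genes fell, it was -3.90 with an adjusted p of 0.0287. With DESeq2 it was -2.36 with an adjusted p of 0.0285. These were the alternatives that passed of 19, over which the adjusted p ran from 0.0285 to 0.370. The table places Cfb at 4536212 to 4542073 of chromosome 20, minus strand. A second row of that name overlaps it and had a mean FPKM of 0.151 in sham and 0.186 in ischemia, under the limit for testing, so the division of reads between the rows is uncertain.

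C3 and Cfb, whose products form 1 convertase, had opposite signs. In FPKM, Cfb exceeded C3 by 77.5, 46.2 and 36.1 times in sham and by 5.40, 1.66 and 1.78 times in ischemia. Every ischemia ratio was below every sham ratio.

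Cd55 was the only membrane regulator among the members. Its FPKM was 7.16, 1.23 and 4.8 in sham and 2.79, 11.5 and 1.96 in ischemia. Ischemia replicate 2 was the highest sample, and the groups overlapped. The log2 fold change was 0.22 ± 0.78 (SE, n = 3 per group), with a wide 95% interval from -1.66 to 2.11 and an adjusted p of 0.861 by edgeR. The sign turned without sham replicate 2 (-0.20) and without ischemia replicate 2 (-0.86), so no direction can be given. The table places Cd55 at 47126741 to 47154292 of chromosome 13, minus strand.

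**Figure D3:**
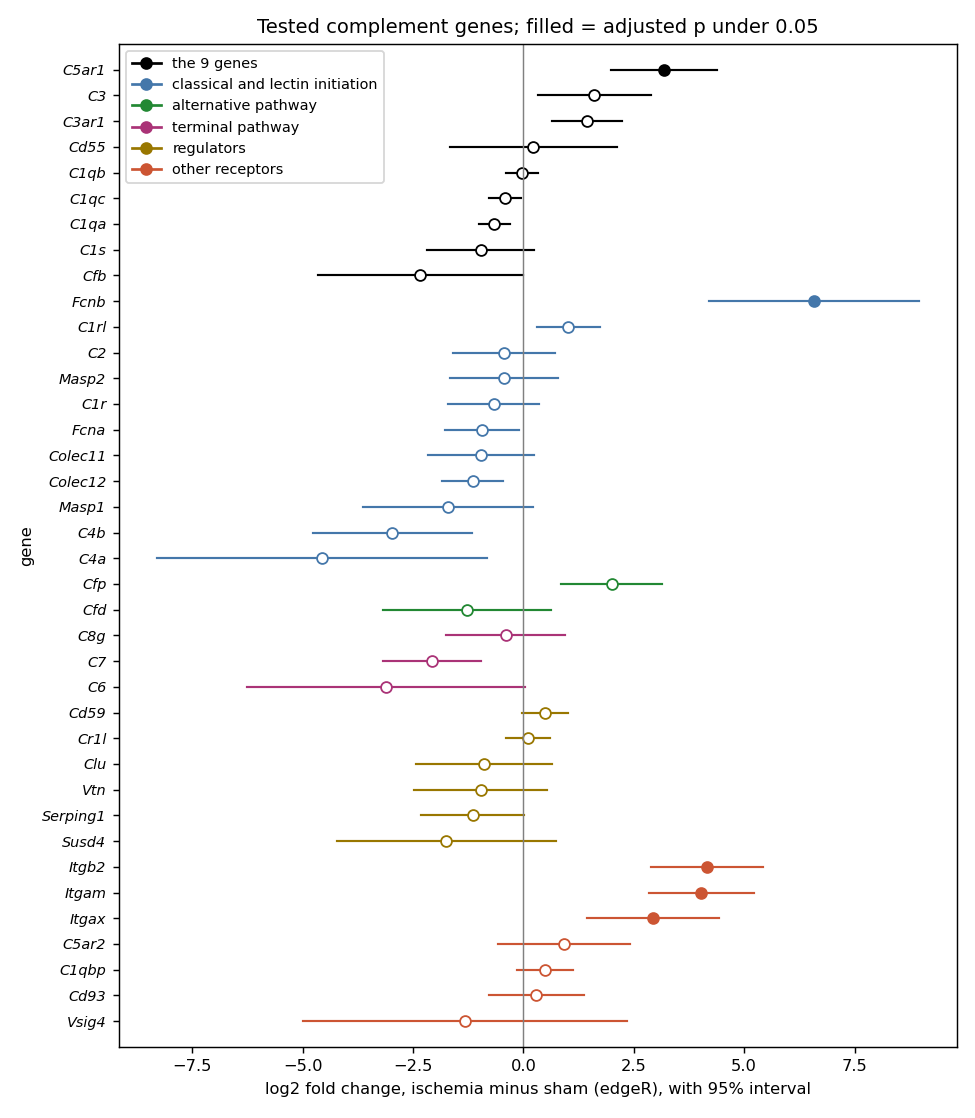
Log2 fold changes of the 9 genes and of the other tested complement genes, 1 left out, ischemia minus sham, by edgeR, with 95% intervals. Filled points mark an adjusted p under 0.05, which are C5ar1, Fcnb, Itgb2, Itgam and Itgax, and each of these lies on the higher side.

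The wider pathway was described with a list of 48 other complement genes, of which 45 were in the table and 30 were tested. Of these, 4 rose (Fcnb, Itgam, Itgax and Itgb2), 0 fell and 26 did not pass the edgeR test, while 5 had a negative log2 fold change at an unadjusted p under 0.05. Over all tested genes 5.18% rose, 1.53% fell and 14.2% had a negative value at that unadjusted p. DESeq2 called 6 as lower, beside 12.5% of all tested genes, and limma on log2(FPKM + 0.1) called 2, beside 1.88%. The median log2 fold change was -0.78, with 11 positive and 19 negative values, against -0.0015 over all tested genes. C1ra, Mbl2 and Cd59b were not analysed here.

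Among the 11 tested initiation genes of the classical and lectin pathways, 1 rose, beside 5.18% of all tested genes, and the median was -0.94. Fcnb encodes a ficolin, a lectin of neutrophil and monocyte granules. Its FPKM was 0.875, 0.413 and 0.502 in sham and 16.5, 146.2 and 27.2 in ischemia. These groups were far apart, with a log2 fold change of 6.59 ± 0.99 (SE, n = 3 per group) and an adjusted p of 0.0303 by edgeR. Fcnb missed the threshold in 6 of 19 alternatives (adjusted p = 0.158 without sham replicate 1, reaching 0.223), and without ischemia replicate 2 its log2 fold change was 5.17. C4b, the gene of a C4 isotype, had FPKM values of 77.0, 35.1 and 71.3 in sham and 17.2, 3.38 and 3.42 in ischemia, with a log2 fold change of -2.97 and an adjusted p of 0.0614. C4a had values of 37.0, 19.0 and 45.6 in sham and 3.78, 0.019 and 0.536 in ischemia (log2 fold change -4.57, adjusted p = 0.108). Without ischemia replicate 1 the log2 fold change was -4.24 for C4b (adjusted p = 0.0123, range over 19 alternatives 0.000193 to 0.207) and -6.91 for C4a (0.0359, range 0.00137 to 0.273). C4b passed in 6 and C4a in 5 of these alternatives. Both C4 genes lay lower in each ischemia sample, but they are near-identical copies and the division of reads between them is uncertain. The protease gene Masp1 (-1.70), the ficolin gene Fcna (-0.94), C1r (-0.68) and C2 (-0.44) had negative log2 fold changes that did not pass. Without ischemia replicate 1, Masp1 (-2.87, adjusted p = 0.0399, range 0.0399 to 0.484) and C1r (-1.25, 0.0482, range 0.0482 to 0.826) passed. In the fit without that sample 7.98% of all tested genes fell.

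Of the alternative pathway, Cfp encodes properdin, which stabilizes the convertase and is stored in neutrophils. Its FPKM was 6.82, 5.60 and 12.1 in sham and 19.0, 61.5 and 24.3 in ischemia. Its groups did not overlap, and the log2 fold change of 2.0 ± 0.48 (SE, n = 3 per group) had an adjusted p of 0.0553 by edgeR. It passed with DESeq2 (0.000849) and without ischemia replicate 1 (0.0282), settings in which 14.8% and 10.7% of all tested genes rose. The adjusted p of Cfp reached 0.317 over 19 alternatives. Without ischemia replicate 2 its log2 fold change was 1.39. Cfd, the gene of factor D, an adipocyte product that cleaves factor B, had FPKM values of 23.5, 46.6 and 123.1 in sham and 50.8, 23.9 and 8.25 in ischemia. Its groups overlapped (log2 fold change -1.29, adjusted p = 0.290), and the log2 fold change was -0.56 without sham replicate 3 and -2.13 without ischemia replicate 1. Cfp and Cfd, which both act on the alternative convertase, had opposite signs.

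C7, a component of the membrane attack complex, had FPKM values of 139.9, 46.5 and 133.8 in sham and 38.5, 19.5 and 19.1 in ischemia. Every ischemia value was below every sham value, and the log2 fold change of -2.08 ± 0.46 (SE, n = 3 per group) had an adjusted p of 0.0504 by edgeR. It passed in 5 of 19 alternatives, over which the adjusted p ran from 0.000136 to 0.188. Of the 7 listed terminal genes, 3 were tested. C5, the precursor of the ligand of C5ar1, had 5, 0 and 15 counts in sham and 0, 4 and 0 in ischemia. C8a and C8b had 0 counts in each sample. C5 transcripts were thus close to the limit of detection in both groups while C5ar1 was well covered.

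Among the 7 tested regulators, 0 passed in either direction by edgeR (0 at an unadjusted p under 0.05) and the median log2 fold change was -0.97. Serping1 encodes the C1 inhibitor, and its FPKM was 188.3, 115.4 and 221.0 in sham and 143.8, 52.1 and 47.9 in ischemia (log2 fold change -1.16, adjusted p = 0.155). Without ischemia replicate 1 it was -1.89 with an adjusted p of 0.0180, the lowest over 19 alternatives, which reached 0.433. In the fit without that sample 7.98% of all tested genes fell. Cd59 encodes the membrane inhibitor of the attack complex. Its FPKM was 95.3, 60.3 and 100.4 in sham and 136.8, 109.0 and 127.1 in ischemia, without overlap (log2 fold change 0.49, adjusted p = 0.168). Clu (-0.89) and Vtn (-0.97), which encode the fluid-phase inhibitors clusterin and vitronectin, and the membrane regulator Cr1l (0.099) did not pass. The sign of Clu turned with an atrial covariate and that of Cr1l without ischemia replicate 2.

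Of the 7 other receptor genes tested 3 rose, beside 5.18% of all tested genes, and the median log2 fold change was 0.92. Itgam, Itgax and Itgb2 encode the integrin chains of complement receptors 3 and 4, which bind fragments of C3 on myeloid cells. The span of Itgax lies within that of Itgam on the same strand, so the division of reads between these genes is uncertain. Itgam had FPKM values of 0.707, 0.779 and 0.846 in sham and 6.27, 23.7 and 11.6 in ischemia. Itgb2 had values of 2.78, 2.53 and 3.74 in sham and 22.5, 96.2 and 54.9 in ischemia. Both showed ischemia replicate 2 as the highest sample, as C5ar1 did. Their log2 fold changes were 4.03 ± 0.49 for Itgam and 4.16 ± 0.53 for Itgb2 (SE, n = 3 per group), each with an adjusted p of 0.0272 by edgeR. Itgam and Itgb2 each missed the threshold in 6 of 19 alternatives, with an adjusted p of 0.157 for either gene without sham replicate 1 and ranges that reached 0.188 and 0.194. Itgax had a log2 fold change of 2.93 ± 0.62 (SE, n = 3 per group) with an adjusted p of 0.0478, and it missed the threshold in 11 of 19 alternatives. Without ischemia replicate 2 it was 2.18 (adjusted p = 0.0608, range 3.68e-05 to 0.310). Cd93 (0.29) and C1qbp (0.48), which encode a phagocyte surface protein and a C1q-binding protein of mitochondria, did not pass, and the sign of Cd93 turned in 2 alternatives.

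**Figure D4:**
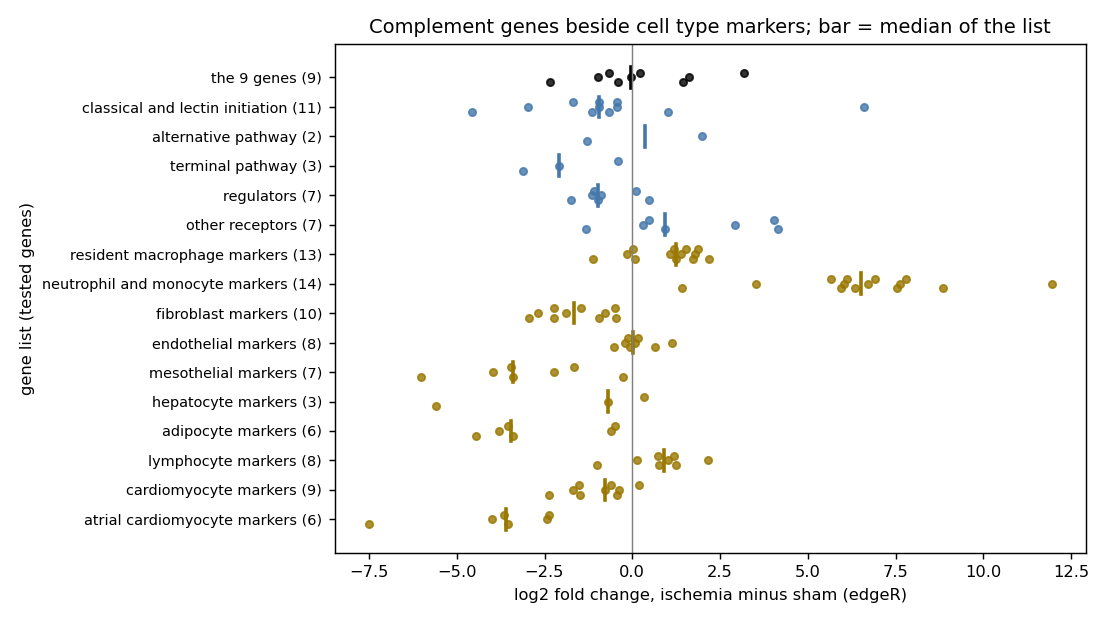
Log2 fold changes, ischemia minus sham by edgeR, of the tested genes of each complement and cell marker list, with a point per gene and a line at each median. Neutrophil and monocyte markers lie highest with a median of 6.52, and the fibroblast, mesothelial and adipocyte markers lie below 0.

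Within sham, C1s, Cfb, C4b and C7 were each lowest in FPKM in replicate 2, the library with the low atrial sum. So were C1qa, C1qb, C1qc, C3 and Cd55, but not C3ar1 and C5ar1. That library also had the lowest TMM scaling factor of all samples (0.834), which the FPKM values do not use. With the mean of the atrial genes as a covariate, a setting without calls in any gene, the log2 fold change was -0.28 for C1s, -1.51 for Cfb, -2.31 for C4b and -1.24 for C7. It was 2.25 for C3, 1.04 for C3ar1 and -0.64 for C1qa. Without sham replicate 1 the values were -0.77 for C1s, -1.67 for Cfb, 1.79 for C3, 1.47 for C3ar1, -0.69 for C1qa and -0.45 for C1qc. Each of these kept its sign, while C1qb (0.0188) did not.

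Markers of stromal and surface cells had negative medians, the side on which C1s, Cfb, C4b and C7 lay. Of 10 fibroblast genes, 1 fell (Pi16) and 6 had a negative value at an unadjusted p under 0.05, beside 1.53% and 14.2% of all tested genes. The summed FPKM of the fibroblast genes was 1565 to 4103 in sham and 545.6 to 1414 in ischemia. Mesothelial genes, which mark the outer lining of the heart, had a summed FPKM of 54.8 to 121.5 in sham and 5.30 to 38.7 in ischemia, 0 of 7 passed the edgeR test (2 at an unadjusted p under 0.05) and Bnc1 was at 0 counts in each ischemia sample. Adipocyte genes had a summed FPKM of 477.6 to 1164 in sham and 397.0 to 682.6 in ischemia, and 0 of 6 passed (1 at an unadjusted p under 0.05). Their part in the complement values was not tested. Endothelial genes had a summed FPKM of 265.3 to 288.4 in sham and 315.4 to 376.8 in ischemia, with 0 of 8 passing (3 at an unadjusted p under 0.05). Of 8 lymphocyte genes Cd8a rose and Cd4 fell, with sums of 23.3 to 31.5 and 34.0 to 47.1. Of the liver genes, Fgb was at 0 counts in each sample and Alb reached an FPKM of at most 3.07, and 0 of 3 tested hepatocyte genes passed (0 at an unadjusted p under 0.05), with sums of 49.5 to 64.8 in sham and 44.5 to 87.9 in ischemia.

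The level per transcript length placed the members in a different order in the 2 groups. In sham the highest mean FPKM was that of Cfb (103.8 ± 73.3), which rested on sham replicate 1, since in replicates 2 and 3 Cfb lay below C1qa and C1qc. It was followed by C1qa (80.3 ± 12.5), C1qc (69.6 ± 9.91), C1s (68.4 ± 27.5) and C1qb (56.5 ± 10.7), with SD over n = 3 samples. Neighbours in this order lay within their spread. C5ar1 (5.35 ± 1.13), Cd55 (4.4 ± 2.99), C3 (1.86 ± 0.750) and C3ar1 (1.19 ± 0.156) formed a lower tier. In ischemia the C1q chains led, with C1qb at 58.2 ± 3.76, C1qc at 55.1 ± 6.10 and C1qa at 53.9 ± 6.65. C5ar1 followed at 52.8 ± 37.2, C1s at 35.9 ± 23.3, Cfb at 21.1 ± 23.8, C3 at 5.92 ± 3.45, Cd55 at 5.41 ± 5.27 and C3ar1 at 3.46 ± 1.03. The mean of C5ar1 rested on ischemia replicate 2, where it was above each C1q chain at 95.2, while at 25.1 and 38.2 in replicates 1 and 3 it was below each of them.

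The genes whose log2 CPM followed the members most closely over the 6 samples are given by Pearson's r as a description. The 6 points share libraries and depth, and the 2 groups differ. For C5ar1 they were Adamts4, Cd14, Tyrobp and Ctsz (r = 0.999 each) and Prelid1 (0.998). Cd14 and Tyrobp encode a receptor for bacterial lipopolysaccharide and a signaling adaptor of myeloid cells. For the mean of the C1q chains they were Mbp (0.992), RT1-M3-1 (0.992), Sh3d19 (0.991), Rgl1 (0.990) and Vxn (0.990). For C3 they were Ube2s (0.999), Sertad3 (0.985), Plekha3 (0.975), Eif1b (0.966) and Psca (0.965).

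**Figure D5:**
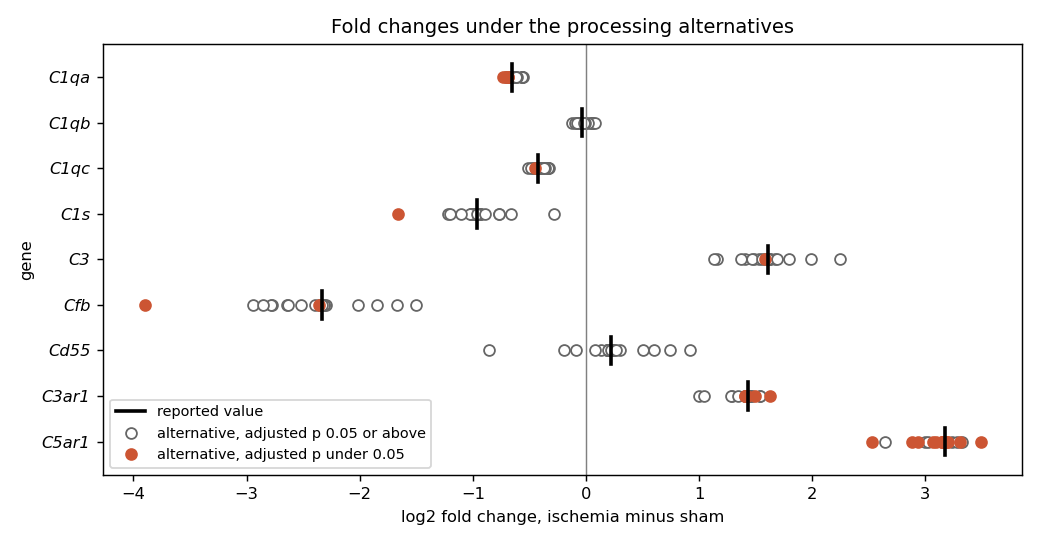
Log2 fold change of the 9 genes, ischemia minus sham, with a black bar at the reported value and a point per alternative, filled where the adjusted p was under 0.05. C5ar1 stays between 2.53 and 3.49 and C1qa between -0.74 and -0.56, while C1qb and Cd55 fall on both sides of 0.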

How the data were processed

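RNA sequencing of 6 rat myocardial samples, 3 sham and 3 ischemia, was analysed from 1 deposited table. The raw counts deposited by the authors are whole reads per Ensembl gene, not normalized. The FPKM values deposited by the authors scale them by gene length and library size, with genes without reads set to 0.0001. The submitters' processing notes name STAR and HTSeq. Their versions, the strand setting and the genome build are not given in the sources used here, so overlapping rows and near-identical copies are uncertain.

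Rows whose mean FPKM reached 0.5 were tested with the edgeR quasi-likelihood test on counts after TMM scaling, two-sided, with Benjamini-Hochberg adjustment over all 13964 genes. The standard error came from the F statistic. Within-sample ratios of log2 CPM (prior count 2) were compared by exact permutation tests, and 1 of the 4 planned ratios is not reported here. The members and lists were chosen with earlier results of these data known. Of the other complement genes, those past the adjusted threshold or with a mean FPKM of at least 10 were named. The marker lists were those of resident macrophages, neutrophils and monocytes, fibroblasts, endothelial, mesothelial, liver, fat, lymphoid, cardiac muscle and atrial cells. The most similar genes were the 5 with the highest Pearson r outside the members, with placeholder names passed over. Upstream sequences came from RefSeq on GRCr8, where 5 of 9 members matched, and the motif letters were chosen with the sequences in view.

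Alternatives were DESeq2, limma on FPKM with 3 pseudocounts, other scalings and filters, robust estimation, a replicate block, an atrial covariate and each sample left out. The edgeR, limma and DESeq2 tests were run on simulated data with known changes. The limit set there on false calls covered edgeR and limma but not DESeq2. Total counts of 68529126 to 79591989 per sample set the depth. Tools were edgeR 4.0.16, DESeq2 1.42.0 and limma 3.58.1 in R 4.3.3, with SciPy 1.17.1 and matplotlib 3.10.9 in Python 3.11.15.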

Additional observations from a re-analysis of the deposited data

How the results depend on the processing

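Of 95 alternative counts of calls, 57 equalled the reported count, 12 were lower and 19 higher by over 1.5 times, and the rest differed by less. Of 168 log2 fold changes of the 9 members, 139 kept their direction and their side of the threshold and 9 reversed. The number of members that rose was 1. It was 3 with DESeq2 (14.8% of all tested genes rose), 2 with limma on log2(FPKM + 0.1) (6.09%) and on log2(FPKM + 0.01) (5.59%) and with quantile normalization (5.87%), and 0 with the replicate block and with the atrial covariate. It ranged from 0 to 2 with 1 sample left out. The number that fell was 0. It was 3 with DESeq2 (12.5% of all tested genes fell), 1 with median ratio scaling (1.81%), with quantile normalization (3.17%) and with a mean FPKM of at least 5 (3.57%), and ranged from 0 to 2 with 1 sample left out, 2 being without ischemia replicate 1 (7.98%). Of the other complement genes 4 rose, 6 with DESeq2, 0 with the replicate block and with the atrial covariate, and 0 to 5 with 1 sample left out. None fell, against 6 with DESeq2, 2 with limma at pseudocounts of 0.1 and 1, 1 at 0.01, 1 with median ratio scaling, 3 with quantile normalization, 1 with a mean FPKM of at least 5, and 0 to 8 with 1 sample left out, 8 being without ischemia replicate 1. With the atrial covariate 2 members, C5ar1 and C3, had a log2 fold change above 2 and an unadjusted p under 0.01. The share of all genes past that rule in this setting was not counted.

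Signs turned for C1qb with limma at pseudocounts of 0.1, 0.01 and 1 (0.0575, 0.0577 and 0.0564), with total count scaling (0.0443), with the atrial covariate (0.0766) and without sham replicate 1 (0.0188). Those of Cd55 turned with the replicate block (-0.0879) and without sham replicate 2 (-0.1975) or ischemia replicate 2 (-0.8601). Without ischemia replicate 2 the signs of Cr1l (-0.0983) and Cd93 (-0.2804) turned, and with the atrial covariate those of Clu (0.345) and Cd93 (-0.3886). The cause was not tested. With 1 sample left out, the log2 fold change ranged from -0.0967 to 0.0188 for C1qb, from -0.8601 to 0.7408 for Cd55, from -0.0983 to 0.2038 for Cr1l and from -0.2804 to 0.6266 for Cd93.

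Same-numbered samples had a mean correlation of -0.115 between their deviations from the group means, and differently numbered samples 0.055. Such deviations cancel within each group, so these few values cannot decide whether the replicate numbers pair the samples. With the replicate block edgeR called 0 genes in all (3349 at an unadjusted p under 0.05), and with the atrial covariate 0 (2273). Over all genes DESeq2 called 2071 higher and 1742 lower, against 723 and 214 by edgeR. The ratios given here kept their direction, but their exact p cannot fall below 0.1, so no call could change. C3, Cd55 and C3ar1 were not tested at a mean FPKM of at least 5.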

Other observations

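Complement genes outside the naming rule were looked at after their values were seen. C5ar2 encodes the second receptor for C5a. Its FPKM was 2.10, 1.23 and 1.10 in sham and 3.47, 4.86 and 0.845 in ischemia, so ischemia replicate 3 was the lowest of the 6 samples while its C5ar1 was above every sham sample. C1rl, which encodes a protease related to C1r, had FPKM values of 1.95, 1.37 and 2.23 in sham and 4.26, 5.05 and 2.58 in ischemia, without overlap (log2 fold change 1.01, adjusted p = 0.0809 by edgeR). C1r itself had a log2 fold change of -0.68. C6, a component of the attack complex, had FPKM values of 2.52, 1.53 and 11 in sham and 1.49, 0.194 and 0.053 in ischemia (log2 fold change -3.11, n = 3 per group, adjusted p = 0.157 by edgeR), with sham replicate 3 well above the other samples. Vsig4, the complement receptor of resident macrophages, had 0 counts in sham replicate 2 and FPKM values of 0.990 and 4.27 in sham replicates 1 and 3 and 0.686, 0.818 and 0.564 in ischemia.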
